A study of Arabidopsis thaliana with 30 samples.

Results

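Seedlings of the mbs1-1 mutant were compared with wild type seedlings after 3 h of high light, on 3 arrays of each line. These 6 arrays were chosen by their labels from the 30 arrays of the study, which held 5 Arabidopsis thaliana lines at 2 times with 3 biological replicates in each of 10 groups. All lines were in the Col-0 strain. In mbs1-1 the MBS1 gene is knocked out or knocked down, and wild type carries no such change. The seedlings were 12 days old and were collected without their roots. They had grown on agar plates with sucrose, and for 7 days in dim continuous light of 10 µE m-2 s-1. The 3 h groups then had 3 h of darkness and afterwards 3 h of light at 1000 µE m-2 s-1, whereas the 0 h groups had no high light. Whether 0 h seedlings had also been through the darkness is not clear from the labels, so a change between 0 h and 3 h may span it. Other lines were used where they bear on the comparison: RNAi-MBS2/mbs1-1, in which RNA interference against MBS2 is added to the mbs1-1 mutation, 35S:MBS1, in which the broadly active 35S promoter drives MBS1, and flu, a mutant of the FLU gene. The kind of mutation in mbs1-1, the promoter of the RNA interference construct and the number of independent transgenic plants behind each line are not stated by the labels.

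High light drives the photosystems faster than the chloroplast can use the energy, and excited chlorophyll then passes energy to oxygen and forms singlet oxygen. Singlet oxygen is short-lived, and its presence in the chloroplast changes the transcription of nuclear genes. MBS1 is a small zinc-finger protein whose counterpart was found in the green alga Chlamydomonas through a mutant with an impaired response to singlet oxygen. FLU holds back chlorophyll synthesis in darkness, so that flu plants gather a chlorophyll precursor that gives singlet oxygen when light returns. The question was which transcripts differed between plants with mutated and with normal MBS1 under high light.

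Levels are log2 values on the scale of robust multi-array averaging (RMA), a method that corrects background, normalizes and summarizes the probes of a probe set. They are given with the SD over 3 arrays, and differences as log2 fold changes of mbs1-1 over wild type with their SE. A probe set was called when its adjusted p from limma over 22746 probe sets was under 0.05. The number of arrays, 3 in each group, limits the precision, and the median SE of a difference was 0.16. Genes known only by a locus code such as AT1G05575 have no symbol in the annotation used here, and no role is given for them. In whole shoots fewer cells of a type and less RNA per cell cannot be told apart.

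One of the 6 arrays stood apart before any gene was compared. Replicate 1 of mbs1-1 at 3 h had a median level of 7.09 and a lower quartile of 4.47, whereas the other 5 arrays had medians of 6.85 to 6.93 and lower quartiles of 4.10 to 4.16. Its excess over the other 5 was 0.34 for probe sets at levels of 3 to 4 and 0.11 for those over 12, so that dim probe sets were raised most. The comparison at 3 h and its difference from 0 h were therefore repeated without this array, and all comparisons with each array centred on its median. Of the marker genes of leaf mesophyll, RCA, the activase of the carbon-fixing enzyme Rubisco, was the 1 of 6 measured, at 12.66 to 12.86 in mbs1-1 and 12.67 to 12.75 in wild type. Of the 8 root markers 3 were measured, and the expansin gene EXPA7 of root hairs lay at 2.85 to 3.32 in mbs1-1 and 2.86 to 2.91 in wild type. The expansin gene EXPA18 lay at 4.21 to 5.01 in mbs1-1 and 4.91 to 5.07 in wild type, and AT5G66390 differed by -0.37 (adjusted p = 0.666).

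**Figure D1:**
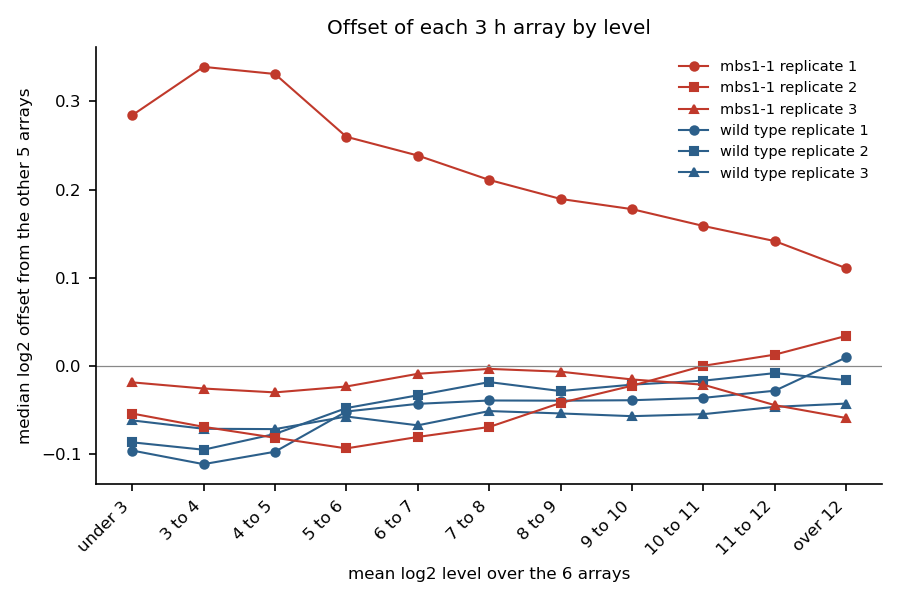
Each line is 1 of the 6 arrays, mbs1-1 in red and wild type in blue, and shows its median offset from the other 5 arrays (vertical axis, log2) against the level of the probe sets (horizontal axis, log2). Replicate 1 of mbs1-1 lay above all others at every level, by 0.34 at levels of 3 to 4 and by 0.11 over 12.

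Between mbs1-1 and wild type at 3 h, 99 probe sets were called, which is 0.435% of those tested. Of these 64 were higher in mbs1-1 (0.281%) and 35 lower (0.154%), and 28 (0.123%) and 25 (0.11%) of them differed by at least 1 on the log2 scale. The called differences ran from -4.34 to 2.50, and the smallest was 0.45 in size. At an unadjusted p under 0.05 there were 2432 probe sets (10.7%), 1938 higher and 494 lower. The 3 mbs1-1 arrays lay above the 3 wild type arrays for 63 of the 64 higher calls and below them for 32 of the 35 lower calls, where over all probe sets the shares without overlap were 12.5% and 3.35%. The calls were made on these same arrays, so this separation largely follows from the calling and adds no support. Exactly 1 gene was matched to 50 of the calls, 33 of the higher and 17 of the lower ones.

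The balance between higher and lower calls moved with the bright array and with the scaling. Higher calls were 64.6% of the values as deposited, 55.6% of 90 after centring and 48.2% of 83 after quantile normalization. Of the 99 calls, 84 were also called after centring with the same sign, 49 higher and all 35 lower. The median difference over all probe sets was 0.08 as deposited and 0.04 after centring. Of the 64 higher calls 18 had a mean level under 5, against 1 of the 35 lower calls and 7273 of all 22746 probe sets. The share of dim ones among the higher calls was thus not above that over all probe sets. The part of the bright array in the higher calls of dim probe sets was not tested apart from these values.

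**Figure D2:**
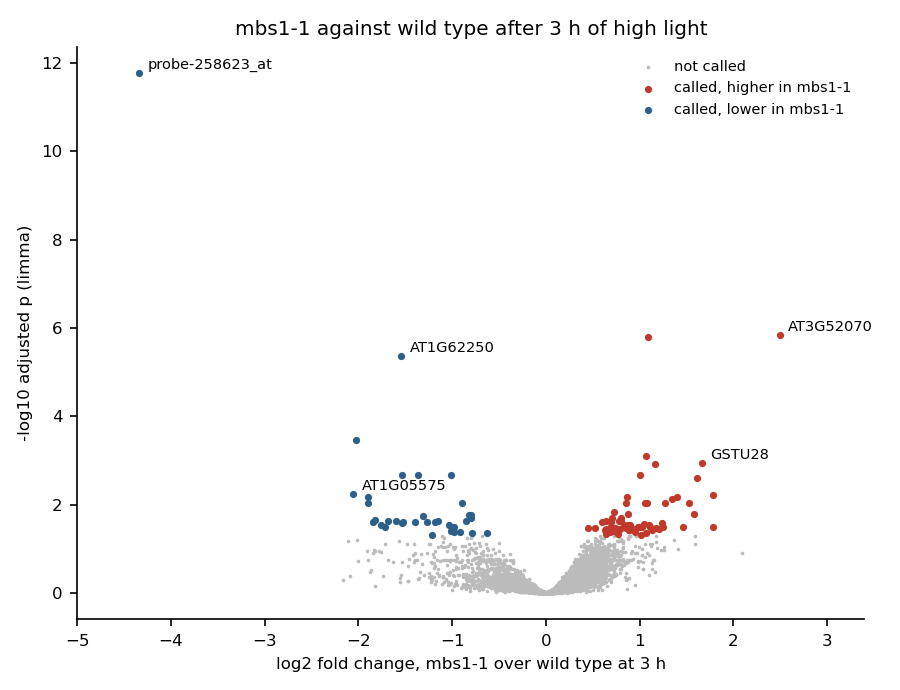
Each point is 1 of 22746 probe sets, with the log2 fold change of mbs1-1 over wild type at 3 h on the horizontal axis and -log10 of limma's adjusted p on the vertical axis. The 64 higher and 35 lower calls are coloured, and the unnamed probe set probe-258623_at stands alone at -4.34.

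Of the targeted genes, MBS1, MBS2 and FLU had no probe set matched to them alone, so the labels were not checked through them here. The lowest difference of all belonged to probe-258623_at, which has no gene in the annotation used and was singled out in earlier work on these data. It read 4.84, 4.16 and 4.23 in the mbs1-1 arrays at 3 h, against 8.74, 8.75 and 8.76 in the wild type arrays. The difference was -4.34 ± 0.22 (adjusted p = 1.7e-12), and -4.55 without the bright array. Its mean at 3 h was 3.96 ± 0.15 in RNAi-MBS2/mbs1-1 and 13.43 ± 0.11 for the 35S:MBS1 line, which carries the added copy of MBS1. A second unnamed probe set, probe-258619_at, moved the other way at a high level. Like all unnamed probe sets below, it was picked with its values in view. It read 12.83, 12.56 and 12.59 in mbs1-1, against 11.61, 11.60 and 11.50 in wild type, and was higher by 1.09 ± 0.11 (adjusted p = 1.64e-06). Both were called in every one of the 6 fits that left out 1 array.

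Among the lower genes, AT1G05575 had the lowest value of those with a name, and AR781 and AT5G05300 were called in every fit that left out 1 array. AT1G05575 read 4.67, 4.24 and 5.60 in mbs1-1, against 6.95, 6.85 and 6.86 in wild type. Every mbs1-1 array was more than 1 log2 unit below every wild type array, and the lines differed by -2.05 ± 0.35 (adjusted p = 0.00572), or 4.15-fold. Without the bright array it stayed at -1.97 with an adjusted p of 0.0524, which missed the threshold. AR781 read 5.80, 5.76 and 6.46 in mbs1-1, against 7.85, 7.76 and 7.00 in wild type, so the groups came closest in replicate 3 of each line and did not overlap. It was lower by -1.53 ± 0.24 (adjusted p = 0.00211) and was called in all 6 fits without 1 array. AT5G05300 read 4.05, 4.43 and 5.03 in mbs1-1 and 6.03, 6.10 and 5.46 in wild type, and was lower by -1.36 ± 0.21 (adjusted p = 0.00211), also in all 6 such fits.

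The same 3 genes were followed between 0 h and 3 h. In wild type the change was 1.61 ± 0.35 for AT1G05575 (adjusted p = 0.00038), 0.62 ± 0.24 for AR781 (adjusted p = 0.037) and 1.23 ± 0.21 for AT5G05300 (adjusted p = 2.65e-05), in a comparison that called 45.5% of probe sets. In mbs1-1 the same changes were -0.61 ± 0.35 (adjusted p = 0.163), -0.69 ± 0.24 (adjusted p = 0.0219) and -0.14 ± 0.21 (adjusted p = 0.627), where 44.6% of probe sets were called. Wild type thus rose in all 3 genes, and in mbs1-1 AR781 fell and the other two passed no test. The test of the difference between the lines' changes gave -2.22 ± 0.49 (adjusted p = 0.0959), -1.31 ± 0.34 (adjusted p = 0.159) and -1.37 ± 0.30 (adjusted p = 0.0959), and none of them passed. The 0 h levels were close, with AT5G05300 at 4.64 ± 0.08 in mbs1-1 and 4.64 ± 0.24 in wild type.

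SUFE2, which in Arabidopsis activates the enzyme that frees sulfur for iron-sulfur clusters, was the second lowest named gene. It read 6.74, 6.31 and 7.13 in mbs1-1, against 8.02, 9.06 and 8.78 in wild type (-1.89 ± 0.34, adjusted p = 0.00936). The lowest wild type array lay well above the highest mbs1-1 array, and the 0 h levels were 8.95 ± 0.24 in mbs1-1 and 8.96 ± 0.42 in wild type. Here mbs1-1 fell by 2.23 between 0 h and 3 h (SE 0.34, adjusted p = 6.01e-06) and wild type changed by -0.34 ± 0.34 (adjusted p = 0.458), and the difference of these changes was -1.89 ± 0.49 (adjusted p = 0.159). AT5G61590 read 7.94, 7.88 and 7.63 in mbs1-1 and 9.20, 9.69 and 8.36 in wild type. It was lower by -1.27 ± 0.26 (adjusted p = 0.0248) at a time when it had fallen in both lines, by 3.04 in mbs1-1 and by 2.29 in wild type.

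AT1G62250 was a case of its own among the lower genes, because it was already lower before high light. At 3 h it read 9.64, 9.25 and 9.73 in mbs1-1, against 10.81, 11.23 and 11.21 in wild type (-1.54 ± 0.16, adjusted p = 4.25e-06). At 0 h it read 8.72, 8.85 and 8.24 in mbs1-1, against 10.04, 9.89 and 9.82 in wild type (-1.31 ± 0.16, adjusted p = 9.39e-05). The lines were apart at both times, and both rose between 0 h and 3 h, by 0.94 ± 0.16 in mbs1-1 and 1.17 ± 0.16 in wild type. The other line with the mbs1-1 mutation, RNAi-MBS2/mbs1-1, averaged 10.98 ± 0.18 at 3 h, and the 35S:MBS1 line 11.17 ± 0.23. RNAi-MBS2/mbs1-1 differed from wild type by -0.10 ± 0.16 (adjusted p = 1) at 3 h, and its difference from mbs1-1 itself was not tested here.

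The other 6 of the 12 lowest named genes differed by -1.76 to -1.03. AT3G23550 averaged 5.62 ± 0.28 in mbs1-1 and 7.37 ± 0.40 in wild type, and AT3G48640 averaged 5.04 ± 0.46 in mbs1-1 and 6.58 ± 0.45 in wild type. AT3G04210 averaged 7.28 ± 0.46 and AT5G02580 6.45 ± 0.33 in mbs1-1, against 8.81 ± 0.29 and 7.85 ± 0.46 in wild type. AT4G27280 averaged 9.12 ± 0.11 and AT1G76600 6.58 ± 0.32 in mbs1-1, against 10.34 ± 0.43 and 7.61 ± 0.25 in wild type. Their adjusted p ran from 0.0248 to 0.0486, and AT4G27280 was the one nearest the threshold. None of the 6 was called at 0 h, where their differences ran from -0.43 to 0.02. Without the bright array 3 of the 12 lowest genes stayed called, AR781, AT5G05300 and AT1G62250. All 12 kept their sign, which their naming by groups without overlap fixed in advance.

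**Figure D3:**
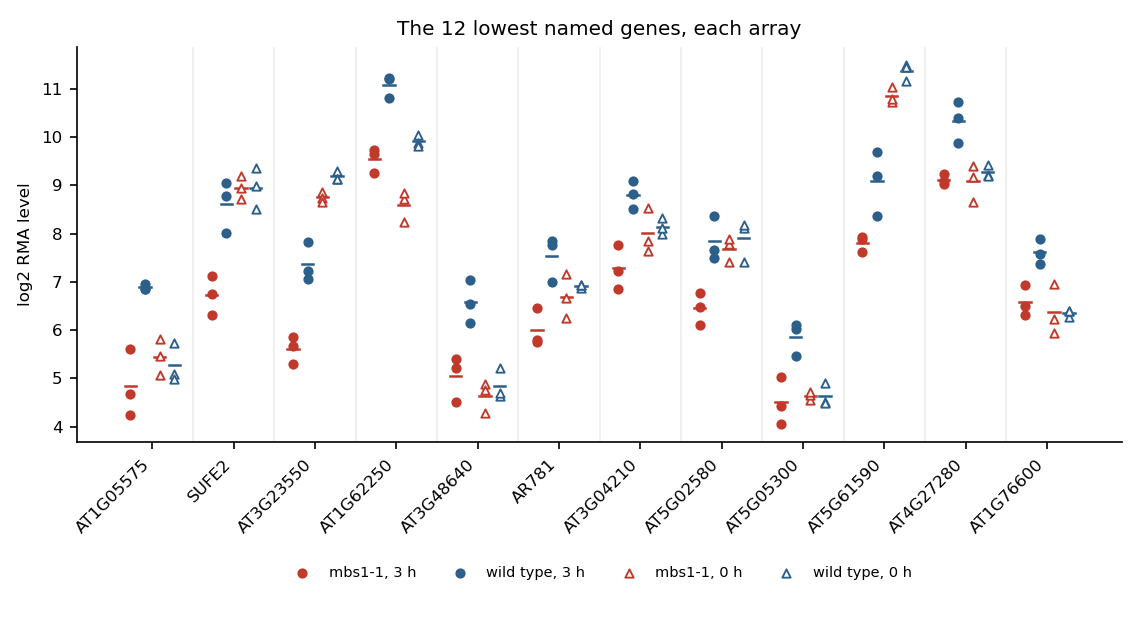
The 12 lowest named genes are shown on the horizontal axis and log2 RMA level on the vertical axis, with 1 symbol per array and a bar at each group mean. Filled circles are 3 h and open triangles 0 h, mbs1-1 in red and wild type in blue. Of the 12, only AT1G62250 was called at both times.

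AR781 and AT1G05575 also belong to a list of genes that respond to singlet oxygen, of which 9 of 17 were measured. All 9 are given here, beyond the rule for naming genes. Of these 2 were lower in mbs1-1 and none higher by the adjusted test, against 0.154% of all probe sets called lower. By sign 8 of 9 were below wild type, where 30.5% of all probe sets were, and the median difference of the list was -1.11, where that of all probe sets was 0.08. At an unadjusted p under 0.05, 6 of the 9 were lower and 1 higher, where 2.17% and 8.52% of all probe sets were. The list was chosen with earlier results of these data known, and its members were read on the same arrays. These counts are therefore no test of the list.

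The 7 members that passed no adjusted test had these values. STZ, a zinc-finger repressor of stress responses, read 8.86, 9.17 and 9.36 in mbs1-1, against 10.94, 10.47 and 9.97 in wild type (-1.33 ± 0.38, adjusted p = 0.129). CML37, a calmodulin-like calcium sensor, read 6.50, 6.17 and 6.40 in mbs1-1, against 7.87, 7.39 and 7.14 in wild type (-1.11 ± 0.26, adjusted p = 0.0503). For both, every mbs1-1 array was below every wild type array. Its relative CML38 read 7.47, 7.22 and 6.87 in mbs1-1, against 8.85, 8.21 and 7.39 in wild type, and these groups overlapped (-0.96 ± 0.31, adjusted p = 0.184). AT3G01830 differed by -1.12 ± 0.29 (adjusted p = 0.0878) and AT1G26380 by -1.06 ± 0.54 (adjusted p = 0.496). AT3G28580 read 4.71, 4.44 and 4.18 in mbs1-1, against 4.55, 5.07 and 4.59 in wild type. Its groups overlapped (-0.29 ± 0.46, adjusted p = 0.88), and in neither line did it change between 0 h and 3 h by an amount that passed. AT5G64870 was the member on the other side, at 8.39 ± 0.29 in mbs1-1 and 7.65 ± 0.12 in wild type (0.74 ± 0.26, adjusted p = 0.231).

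At 0 h the list had a median difference of 0.07 between mbs1-1 and wild type, and no member was called. The difference of 3 h from 0 h passed for none of the 9, with adjusted p of 0.0959 to 0.563. In flu, whose gathered precursor gives singlet oxygen in light, CML37 was above wild type by 3.10 ± 0.26 at 3 h, CML38 by 1.90 ± 0.31, AT1G05575 by 1.68 ± 0.35 and AR781 by 1.35 ± 0.24. Of all probe sets 8.66% were called above wild type there, and singlet oxygen itself was not measured here. Values in flu are not given for AT3G01830, AT1G26380 and AT5G64870. STZ (0.43 ± 0.38, adjusted p = 0.508) and AT3G28580 (1.16 ± 0.46, adjusted p = 0.0853) did not pass in flu. The wild type arrays are the same in both of these comparisons.

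The singlet oxygen list was also set against wild type in the other lines with altered MBS1. Against wild type at 3 h the list median was -1.0 for 35S:MBS1, with no member called. For RNAi-MBS2/mbs1-1 it was -1.17, with 3 called lower, AT1G05575 (-2.22 ± 0.35), AR781 (-1.47 ± 0.24) and CML37 (-1.31 ± 0.26). These comparisons use the wild type arrays of the mbs1-1 comparison. Between lines without those arrays the differences were smaller. RNAi-MBS2/mbs1-1 against 35S:MBS1 gave a list median of -0.27 and no call, and AT1G05575 averaged 4.66 ± 0.51 in RNAi-MBS2/mbs1-1, against 5.03 ± 0.65 in 35S:MBS1. The 3 lines with altered MBS1 thus stood together on 1 side for AT1G05575, at 3 h means of 4.84, 4.66 and 5.03, with wild type at 6.89 ± 0.05.

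**Figure D4:**
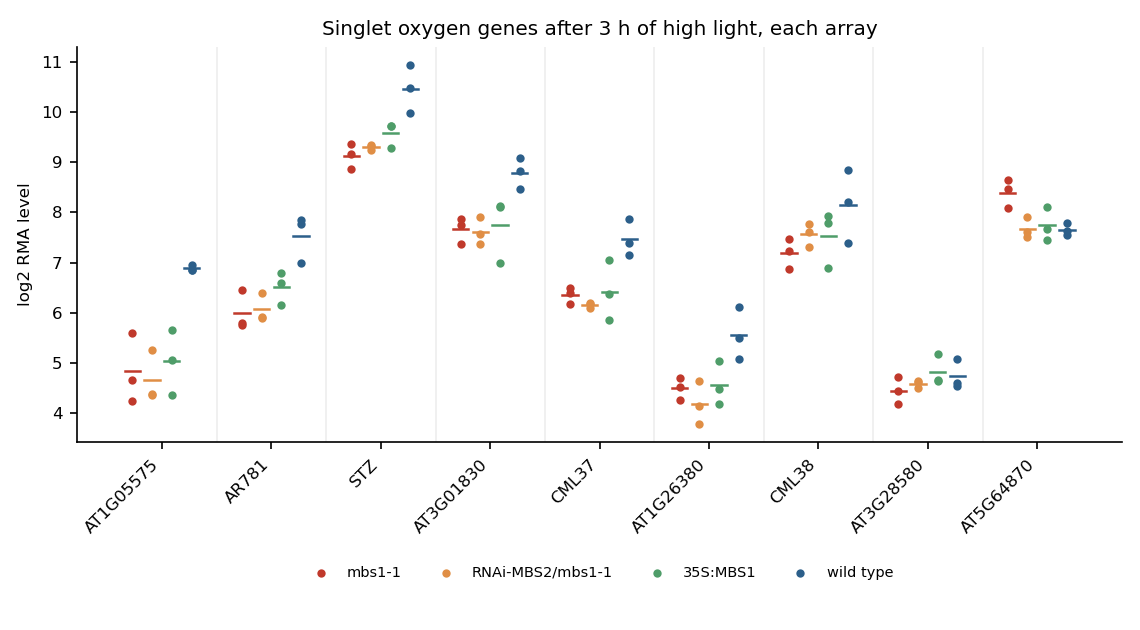
The 9 measured singlet oxygen genes are on the horizontal axis and log2 RMA level at 3 h on the vertical axis, with 1 point per array and a bar at each group mean. Within a gene mbs1-1 stands at the left, then RNAi-MBS2/mbs1-1, then the 35S:MBS1 line, with wild type at the right. For AT1G05575 the wild type arrays, at 6.85 to 6.95, lie above all 9 arrays of the other lines.

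The higher genes were led by AT3G52070. It read 8.12, 7.62 and 7.48 in mbs1-1 at 3 h, against 5.20, 5.21 and 5.32 in wild type, and was 5.66-fold higher (2.50 ± 0.24, adjusted p = 1.43e-06). At 0 h it read 10.07, 9.50 and 9.97 in mbs1-1, against 6.81, 6.29 and 5.59 in wild type (3.62 ± 0.24, adjusted p = 4.48e-10). No other named gene was higher at both times. The RNAi-MBS2/mbs1-1 line stood at 7.57 ± 0.09 at 3 h, the 35S:MBS1 line at 7.58 ± 0.03 and flu at 6.99 ± 0.46, so that wild type lay below all 4 other lines. RNAi-MBS2/mbs1-1 differed from 35S:MBS1 by -0.01 ± 0.24 (adjusted p = 1).

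GSTU28, a glutathione transferase of the plant-specific tau class, which joins glutathione to reactive compounds, was 3.18-fold higher. It read 8.07, 7.99 and 8.04 in mbs1-1, against 5.98, 5.96 and 7.16 in wild type (1.67 ± 0.24, adjusted p = 0.00114). The mbs1-1 arrays were nearly equal, and replicate 3 of wild type lay more than 1 unit above the other two. ARLA1B, a small GTPase of the ARF-like family, read 8.28, 8.34 and 8.41 in mbs1-1, against 7.18, 6.79 and 6.21 in wild type (1.61 ± 0.26, adjusted p = 0.00245). At 0 h ARLA1B averaged 6.58 ± 0.14 in mbs1-1 and 6.60 ± 0.08 in wild type. It rose between 0 h and 3 h in mbs1-1 (1.76 ± 0.26, adjusted p = 2.83e-06) and changed by 0.13 ± 0.26 (adjusted p = 0.732) in wild type, though the difference of these changes, 1.63 ± 0.36, had an adjusted p of 0.102. AT4G16400 read 8.68, 8.31 and 8.40 in mbs1-1, against 7.61, 7.15 and 7.15 in wild type (1.16 ± 0.17, adjusted p = 0.00121). AT3G48460 read 10.47, 10.41 and 10.20 in mbs1-1, against 9.34, 9.16 and 9.38 in wild type (1.07 ± 0.15, adjusted p = 0.00079). These 4 genes and AT3G52070 were the 5 of the 12 highest that stayed called without the bright array, with differences there of 1.65 for GSTU28, 1.65 for ARLA1B, 1.05 for AT4G16400, 1.02 for AT3G48460 and 2.31 for AT3G52070.

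The other 7 of the 12 highest genes differed by 1.06 to 1.78. AT4G31875 read 9.71, 9.71 and 9.93 in mbs1-1, against 8.02, 8.26 and 9.26 in wild type (1.27 ± 0.23, adjusted p = 0.00935). As with GSTU28, replicate 3 of wild type lay closest to the mutant. AT1G07590 averaged 7.36 ± 0.27 in mbs1-1 and 5.90 ± 0.31 in wild type, and AT3G56260 averaged 8.97 ± 0.37 in mbs1-1 and 7.89 ± 0.34 in wild type. The other 4 were dim. AT4G11710, which RefSeq lists as a pseudogene, averaged 6.14 ± 0.32 in mbs1-1 and 4.36 ± 0.94 in wild type. AT3G24750 averaged 5.28 ± 0.20, AT4G18395 4.57 ± 0.42 and AT2G02700 4.01 ± 0.65 in mbs1-1, against 4.03 ± 0.59, 3.51 ± 0.12 and 2.88 ± 0.21 in wild type. In AT4G18395 the bright array was the highest, at 5.05 against 4.31 and 4.34 in the other mbs1-1 arrays, and its difference was 1.06 with that array and 0.81 without it. In AT2G02700 replicate 2 stood apart, at 3.26 against 4.36 and 4.41. Whether these dim levels lie above background was not tested. An unnamed probe set, probe-250795_at, read 6.67, 5.69 and 5.95 in mbs1-1, against 5.03, 4.15 and 3.76 in wild type (1.78 ± 0.30, adjusted p = 0.0061).

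**Figure D5:**
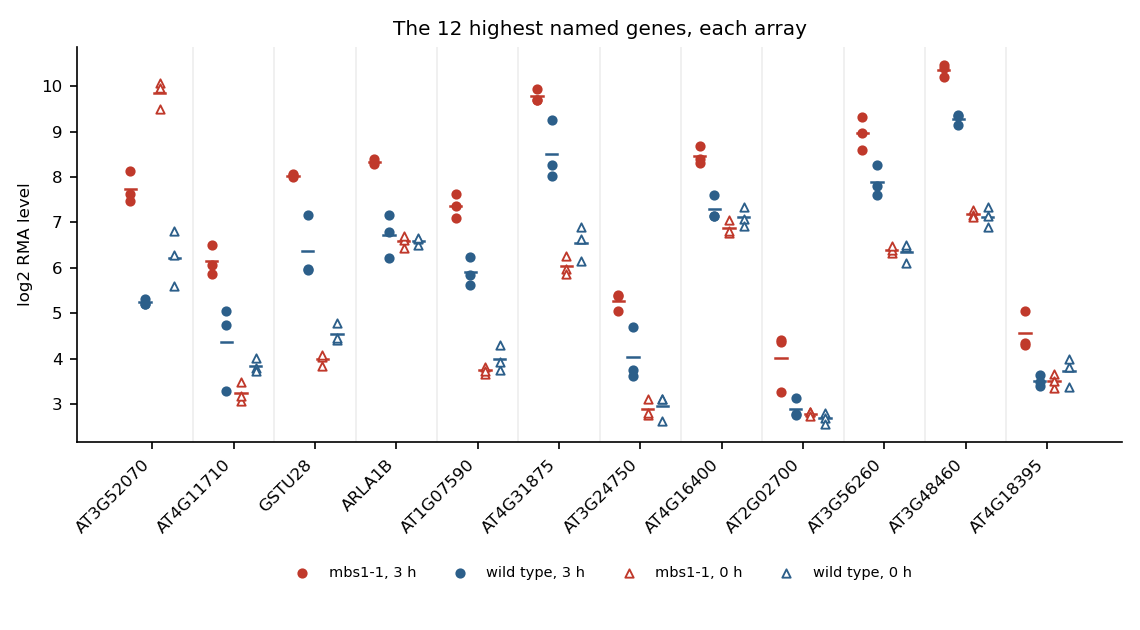
The 12 highest named genes are on the horizontal axis and log2 RMA level on the vertical axis, with 1 symbol per array and a bar at each group mean. Filled circles are 3 h and open triangles 0 h, mbs1-1 in red and wild type in blue. AT3G52070 was higher in mbs1-1 at both times, and the mbs1-1 arrays of GSTU28 at 3 h lie within 7.99 to 8.07.

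Enzymes that attach sugars or glutathione to small molecules also had called members. Of 51 measured family 1 glycosyltransferases 2 were higher and none lower, against 0.281% and 0.154% of all probe sets. UGT84A1, which makes glucose esters of sinapate and related acids used as ultraviolet screens, read 11.01, 10.92 and 10.91 in mbs1-1, against 10.42, 10.23 and 10.08 in wild type (0.70 ± 0.14, adjusted p = 0.0203). UGT76C2, which inactivates cytokinin hormones by adding glucose, read 7.89, 7.87 and 7.91 in mbs1-1, against 7.33, 7.33 and 7.09 in wild type (0.64 ± 0.13, adjusted p = 0.0235). Both had mbs1-1 arrays within 0.1 of each other and clear of wild type, yet both lost the call without the bright array, with adjusted p of 0.121 and 0.115 at differences of 0.67 and 0.64. Each also lost it without replicate 2 of mbs1-1, and without replicate 2 or replicate 3 of wild type. At an unadjusted p under 0.05, 13 of the 51 were higher and 2 lower, where 8.52% and 2.17% of all probe sets were. The family's median difference was 0.19 at 3 h and -0.06 at 0 h, with 0.09 and -0.07 for all probe sets that have 1 gene. Against wild type at 3 h its median was -0.04 for RNAi-MBS2/mbs1-1 and -0.06 for 35S:MBS1. All probe sets that have 1 gene had -0.03 and -0.02 there.

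UGT78D2, which adds glucose to flavonols and anthocyanins, missed the threshold at 3 h. It read 11.59, 11.52 and 11.54 in mbs1-1, against 11.07, 10.95 and 11.29 in wild type (0.45 ± 0.11, adjusted p = 0.0674). Of the 14 glutathione transferases measured, 1 was higher, GSTU28, where 0.281% of all probe sets were. GSTU25, of the same tau class, had the lowest value of the family, at -1.87 ± 0.71 (adjusted p = 0.293), and was named after its value was seen. The family median was 0.19.

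Among 14 auxin and shade genes 1 was lower, where 0.154% of all probe sets were. It was HAT2, a homeodomain-leucine zipper factor induced by auxin. HAT2 read 6.14, 6.20 and 6.66 in mbs1-1, against 7.06, 7.51 and 6.80 in wild type (-0.79 ± 0.18, adjusted p = 0.0443). The call was lost without the bright array (adjusted p = 0.282), without replicate 2 of mbs1-1 (0.121), without replicates 1 (0.104) or 2 (0.291) of wild type, and with the compared arrays fitted alone (0.244) or the replicate number as a block (0.0594). It fell between 0 h and 3 h in both lines, by 2.41 ± 0.18 in mbs1-1 and by 1.59 ± 0.18 in wild type. The other 13 members passed no test, and the list median was 0.09.

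The other 22 lists with at least 3 measured genes had no call, and their medians ran from -0.17 to 0.51. Photosynthesis genes lay near the median of 0.09 over all probe sets with 1 gene. The 7 nuclear photosystem and antenna genes had differences of 0.06 to 0.19, with LHCB4.1, a minor antenna protein of photosystem II, at 13.30 ± 0.09 in mbs1-1 and 13.13 ± 0.02 in wild type (0.17 ± 0.11, adjusted p = 0.631). The 4 Calvin cycle genes had a median of 0.11, and SBPASE, sedoheptulose bisphosphatase, stood at 0.14 ± 0.11 (adjusted p = 0.699). The 8 tetrapyrrole synthesis genes, which make chlorophyll and haem, had a median of 0.16 and HEMB1, an early enzyme of that route, stood at 0.22 ± 0.11 (adjusted p = 0.485). The 69 plastid-encoded genes were split, 34 above and 35 below wild type, with a median of -0.0004, and the ribosomal protein gene rps2 stood at 0.38 ± 0.17 (adjusted p = 0.429, and 0.21 without the bright array). The 16 mitochondrion-encoded genes had a median of 0.15, and nad1, of respiratory complex I, stood at -0.31 ± 0.15 (adjusted p = 0.47).

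Of the stress lists other than singlet oxygen, the cold and abscisic acid genes had the median farthest from that of all probe sets among lists with at least 3 measured genes. For the 6 hydrogen peroxide and antioxidant genes it was 0.07, with the thylakoid ascorbate peroxidase TAPX at 0.32 ± 0.14 (adjusted p = 0.424, and 0.17 without the bright array), and for the 10 heat shock genes -0.02, with the chaperone gene CLPB2 at 0.27 ± 0.13 (adjusted p = 0.478, and 0.10 without the bright array). The 7 endoplasmic reticulum stress genes had a median of -0.08, with AT5G07340 at -0.25 ± 0.12 (adjusted p = 0.453). The 5 cold and abscisic acid genes had the highest median, 0.51, and the dehydrin gene COR47 averaged 13.15 ± 0.09 in mbs1-1 and 12.55 ± 0.22 in wild type (0.60 ± 0.20, adjusted p = 0.203). The 8 flavonoid and anthocyanin genes had the lowest, -0.17, although UGT78D2 in that list was above wild type. The 11 ATG8 and autophagy genes had a median of 0.04, and ATG8H, a protein of the autophagosome membrane, stood at 0.63 ± 0.19 (adjusted p = 0.172). The 6 RNA granule and decay genes had differences of -0.11 to 0.15 and a median of 0.04, with AT2G42520 at 0.15 ± 0.12 (adjusted p = 0.698).

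WRKY53, a transcription factor of leaf senescence and stress, had the largest value among the 7 WRKY factors. It read 9.43, 9.41 and 10.73 in mbs1-1, against 11.29, 11.37 and 10.47 in wild type, so that replicate 3 of each line made the groups overlap (-1.19 ± 0.32, adjusted p = 0.109). AT3G15450, of the dark and starvation list, was still more uneven, at 4.56, 4.06 and 4.72 in mbs1-1 and 5.99, 7.49 and 4.23 in wild type (-1.46 ± 0.45, adjusted p = 0.173). With 1 array left out its difference ran from -2.30, without replicate 3 of wild type, to -0.67, without replicate 2 of wild type. AFR, an F-box protein of far-red light signalling, read 8.61, 8.41 and 8.37 in mbs1-1, against 7.51, 7.28 and 7.98 in wild type, and missed the threshold (0.87 ± 0.21, adjusted p = 0.0592). The expansin gene EXPA16, a cell wall loosening protein, stood at 1.13 ± 0.42 (adjusted p = 0.284) and CYP78A9, a cytochrome P450 of fruit growth, at -0.61 ± 0.19 (adjusted p = 0.165). PYE, NAC014, TINY2, AT5G17950 and AT1G04770, the members with the smallest p in the iron deficiency, NAC, AP2 and ERF, cell cycle and assimilation lists, had differences of -0.31 to 0.37 and adjusted p of 0.497 to 0.805. The cell cycle and NAC lists were filled by matching gene symbols and synonyms, so their members need not be of the named class. That holds for AT5G17950, which is known only by its locus code. Without the bright array PYE moved to 0.05, against 0.14 with it, AT5G17950 to 0.10, against 0.23, and NAC014 to -0.38, against -0.24.

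Before high light fewer probe sets were called than at 3 h in the fit of all 30 arrays. At 0 h 7 probe sets were called (0.0308%), 3 higher (0.0132%) and 4 lower (0.0176%), and 2 had a gene, AT3G52070 and AT1G62250. At an unadjusted p under 0.05 there were 1908 (8.39%), against 2432 at 3 h. When the compared arrays were fitted alone the order was the other way, with 2 calls at 3 h and 8 at 0 h, and the unadjusted counts were close, at 2250 and 2227. Of the 99 probe sets called at 3 h, 5 were called at 0 h with the same sign, among them probe-258623_at (-4.62 ± 0.22) and probe-258619_at (1.51 ± 0.11). The median difference at 0 h was -0.08 for the 64 higher calls, with 18 above 0, and -0.12 for the 35 lower calls, with 24 below 0. Of all probe sets 37.5% were above 0 and 62.5% below, and their median was -0.06.

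The test of whether the log2 difference of mbs1-1 from wild type shifted between 0 h and 3 h called 12 probe sets (0.0528%), all shifted upward in mbs1-1 relative to wild type, of which 7 had a gene. The share of higher calls was 85.7% of 7 after quantile normalization. At an unadjusted p under 0.05 there were 2920 (12.8%). GSTU28 had the largest value of these 7 genes, at 2.23 ± 0.35 (adjusted p = 0.0102): its level rose by 4.05 in mbs1-1 and by 1.82 in wild type, over 0 h levels of 3.98 ± 0.13 in mbs1-1 and 4.54 ± 0.20 in wild type. AT4G31875 followed at 1.79 ± 0.32 (adjusted p = 0.0287), with rises of 3.75 in mbs1-1 and 1.96 in wild type. For AT4G16400 the test gave 1.39 ± 0.24 (adjusted p = 0.0262), and it rose in mbs1-1 (1.58 ± 0.17) with a change of 0.19 ± 0.17 in wild type (adjusted p = 0.404).

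Of the other 4 genes with a called difference between the times, 3 were glycosyltransferases. Of this family 51 genes were measured, among 13513 probe sets with 1 gene. UGT84A1 rose by 5.46 in mbs1-1 and by 4.35 in wild type (difference 1.11 ± 0.20, adjusted p = 0.0264). UGT78D2 rose by 4.24 in mbs1-1 and by 3.36 in wild type (0.88 ± 0.15, adjusted p = 0.0262). UGT85A4 fell in both, by 1.77 in mbs1-1 and by 2.81 in wild type (1.04 ± 0.20, adjusted p = 0.0432). In all 3 the mbs1-1 mean was below wild type at 0 h and above it at 3 h. The fourth, AT4G25580, read 4.84, 4.16 and 3.98 in mbs1-1 at 3 h, against 3.77, 3.76 and 3.77 in wild type, and 3.78, 3.92 and 3.79 in mbs1-1 at 0 h, against 4.45, 4.96 and 4.52 in wild type (1.38 ± 0.26, adjusted p = 0.0418). Its difference at 3 h was 0.56 with the bright array and 0.30 without it. In this test 2 bright arrays lie in opposite corners, replicate 1 of mbs1-1 at 3 h and replicate 1 of wild type at 0 h. Both enter it with a plus sign, so that both push its value upward. The median value over all probe sets was 0.14 as deposited and 0.07 after centring. With both bright arrays left out 1 probe set was called, and after centring 4.

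The calls of the 3 h comparison were also placed in each line's own change between 0 h and 3 h, which shares the 3 h arrays with it. Of the 64 higher calls 51 were called as rising in mbs1-1 and 31 in wild type, where 25.9% and 21.1% of all probe sets were. Their median change was 1.44 in mbs1-1 and 0.44 in wild type. Of the 35 lower calls 16 were called as falling in mbs1-1 and 7 in wild type, where 18.8% and 24.4% of all probe sets were. As rising 2 of them were called in mbs1-1 and 15 in wild type. Their median change was -0.69 in mbs1-1 and 0.16 in wild type. Since the calls were made on the same 3 h arrays, high values there raise both measures, and nothing is read from these counts about the calls.

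RNAi-MBS2/mbs1-1 against 35S:MBS1 at 3 h sets the line with MBS1 mutated and MBS2 targeted against the line with added MBS1, on 6 arrays that the mbs1-1 comparison does not use. It called 7 probe sets (0.0308%), 2 higher (0.00879%) and 5 lower (0.022%), and 685 (3.01%) at an unadjusted p under 0.05. Of these 7, 3 were called between mbs1-1 and wild type with the same sign, and none has a gene in the annotation. They were probe-258623_at at -9.47 ± 0.22 (adjusted p = 8.59e-21), probe-258619_at at 0.78 ± 0.11 (adjusted p = 0.000898) and probe-259784_at at -1.15 ± 0.16 (adjusted p = 0.000898). The last read 5.41, 4.97 and 5.10 in mbs1-1 at 3 h, against 5.84, 6.20 and 5.83 in wild type (-0.80 ± 0.16, adjusted p = 0.0202). It averaged 4.90 ± 0.16 in RNAi-MBS2/mbs1-1, against 6.05 ± 0.27 in 35S:MBS1, so that both lines with the mbs1-1 mutation lay below 35S:MBS1 and wild type. The flu line was lowest, at 4.67 ± 0.07. At 0 h its levels in mbs1-1 and wild type were 7.63 ± 0.25 and 7.67 ± 0.19, a difference of -0.04 ± 0.16 (adjusted p = 0.96).

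None of the 24 highest and lowest named genes was called between RNAi-MBS2/mbs1-1 and 35S:MBS1. ARLA1B came nearest among the higher genes, at 7.97 ± 0.31 in RNAi-MBS2/mbs1-1, against 6.98 ± 0.05 in 35S:MBS1 (0.98 ± 0.26, adjusted p = 0.683), and GSTU28 stood at 0.71 ± 0.24 (adjusted p = 1). By sign 58 of the 64 higher calls were above 0 in that comparison and 32 of the 35 lower calls below 0, where 46.5% and 53.5% of all probe sets were. The medians were 0.41 and -0.25, and that of all probe sets -0.01.

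Against the same wild type arrays, the other lines with altered MBS1 gave these values at 3 h. For the 64 higher calls the median was 0.58 for RNAi-MBS2/mbs1-1 and 0.22 for 35S:MBS1, and 9 and 1 of them were called, where 0.0659% and 0.00879% of all probe sets were called higher. For the 35 lower calls it was -1.06 and -0.83, with 18 and 2 called lower, where 0.154% and 0.00879% of all probe sets were, and with probe-258623_at called higher in 35S:MBS1. In flu 40 of the 64 higher calls were also called above wild type, where 8.66% of all probe sets were. Of the 35 lower calls 10 were called below wild type, where 9.65% of all probe sets were, and 6 others were called above it. AT3G23550, AR781, AT1G05575 and AT1G76600 were lower in mbs1-1 and higher in flu, the last by 1.40 ± 0.22 (adjusted p = 4.26e-05), while AT5G61590 was lower in both (-2.29 ± 0.26 in flu, adjusted p = 6.22e-07). Since wild type is the common side, values of the lines in this paragraph are not independent of those of mbs1-1.

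The count of calls at 3 h depended on single arrays. It was 16 without replicate 1 of mbs1-1, 46 without its replicate 2 and 130 without its replicate 3, and 56, 23 and 144 without replicates 1, 2 and 3 of wild type. Fitted alone, the 6 compared arrays gave 2, AT3G52070 and probe-258623_at. All 24 highest and lowest genes kept their sign in each of these 7 fits, but this was fixed in advance. They were named for groups without overlap, whose sign cannot flip when 1 array is left out. Fitting the 6 arrays alone leaves the differences unchanged. Called in all 6 fits without 1 array were AT3G52070, GSTU28, ARLA1B, AT4G16400, AT3G48460, probe-258619_at, AR781, AT5G05300, AT1G62250 and probe-258623_at.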

How the data were processed

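RNA of whole seedlings without root was hybridized to Affymetrix ATH1 arrays. The deposited values are log2 signal per probe set, which the authors computed by RMA (affy), per the submitters' processing notes. Those notes give no version, and do not say if the 30 arrays went through RMA as one set. Scans and detection flags were not analysed here.

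Of 22810 probe sets 64 controls were left out. Of 22746 tested, 13513 had exactly 1 gene in the platform annotation (13436 matched by gene ID to RefSeq TAIR10.1), 503 several and 8730 none. The main model had 1 mean for each of 10 groups and used the 30 arrays (limma 3.58.1, R 4.3.3). Variances were moderated by eBayes, and p was adjusted after Benjamini and Hochberg. Replicates are biological per the labels.

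Named were the 12 highest and 12 lowest called genes whose groups did not overlap and that were called with the same sign after centring, up to 4 called members of each list or else the member with the smallest p, genes called at 0 h or in the difference (up to 6 in each direction), and the fixed genes MBS1, MBS2, FLU, BAP1 (no probe set of its own) and AT3G28580. Lists, members and tests were chosen with earlier results of these data known. The 33 lists hold 346 measured genes, 26 of them with at least 3. Lists have no test.

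Alternatives were the compared arrays alone, a replicate block, a filter on a mean under 5, quantile normalization, centring, a trended and robust prior, 1-gene probe sets alone and each array left out. Same-numbered mbs1-1 and wild type arrays at 3 h did not deviate together. The steps were tested on simulated data. Tables and plots used Python 3.11.15, pandas 2.3.3 and matplotlib 3.10.9. Sequences and coordinates were not analysed here.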

Additional observations from a re-analysis of the deposited data

Results flagged for a closer look

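The log2 difference of mbs1-1 from wild type shifted upward between 0 h and 3 h for 7 named genes, by the test of that shift itself (limma, adjusted over all probe sets). It was 2.23 for GSTU28, 1.79 for AT4G31875, 1.39 for AT4G16400, 1.38 for AT4G25580, 1.11 for UGT84A1, 1.04 for UGT85A4 and 0.88 for UGT78D2, with adjusted p of 0.0102 to 0.0432. In each the mbs1-1 mean was above wild type at 3 h, by 0.33 for UGT85A4 up to 1.67 for GSTU28, and below it at 0 h, by differences of -0.82 for AT4G25580 up to -0.23 for AT4G16400. For AT4G25580 (0.56) and UGT85A4 (0.33) the difference at 3 h was smaller in size than that at 0 h (-0.82 and -0.71). The bright arrays of mbs1-1 at 3 h and of wild type at 0 h both push this shift upward. Its median over all probe sets was 0.14 as deposited and 0.07 after centring, and its 12 calls became 4 after centring.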

How the results depend on the processing

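The 99 calls at 3 h became 2 when the compared arrays were fitted alone, and 16 to 144 with single arrays left out. Higher calls were then 43.8% without replicate 1 of mbs1-1 and 38.2% without replicate 3 of wild type. With 1-gene probe sets alone, where fewer were tested, 48 were called, and 50 of the 99 had 1 gene. All 48 were among the 99. In the other comparisons too, every call with 1-gene probe sets alone was among the main calls. Centring with the filter together, added after seeing the data, gave 83, with 48.2% higher. The 7 calls at 0 h became 2 with 1-gene probe sets alone and 5 to 10 with single arrays left out. The 12 calls of the difference became 3 with only the compared arrays, 7 after quantile normalization, 4 after centring, 7 with 1-gene probe sets alone, 1 to 28 with single arrays left out and 1 with both brighter arrays left out (added after seeing the data). The 7 calls of RNAi-MBS2/mbs1-1 against 35S:MBS1 became 1 with only the compared arrays, 2 with 1-gene probe sets alone and 3 to 6 with single arrays left out. Counts under the other settings stayed within 1.5 times, and no named gene changed sign at 3 h. For the highest and lowest named genes the naming rule fixed this when 1 array was left out. The replicate block gave 100 calls at 3 h, 7 at 0 h, 8 in the difference and 6 between RNAi-MBS2/mbs1-1 and 35S:MBS1. Deviations of same-numbered mbs1-1 and wild type arrays at 3 h correlated at -0.06, -0.05 and -0.04. Those of RNAi-MBS2/mbs1-1 and 35S:MBS1 at 3 h correlated at 0.30, -0.02 and 0.16. Whether a replicate number marks arrays handled together was not tested. The cause of these moves was not tested beyond the smaller number of probe sets or arrays. Detection was not measured here, and whether levels near the floor limited the differences of dim probe sets was not tested.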
